A study of Mus musculus with 40 samples.

Results

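The genes described here carry cholesterol synthesis, the uptake and movement of sterols, and the control of both by the transcription factor SREBP2. They were taken by name from a list of 29 genes. Of these, 28 had a row in the deposited table of 15958 genes, and the protease gene Mbtps2 was not analysed here. The list holds 8 genes that lead to farnesyl and geranylgeranyl pyrophosphate, and 3 that make squalene and carry it to lanosterol. It also holds 9 that carry lanosterol to cholesterol, 5 measured genes of SREBP2 control and 3 genes of uptake and intracellular sterol movement. All 28 passed the filter on low values in each tissue.

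The study used wild-type male C57BL/6 mice that had small bowel resection (SBR) or a sham operation at 8 weeks of age. SBR is a model of short bowel syndrome in which the middle of the small intestine is removed while the duodenum and the terminal ileum are kept. From 3 weeks after surgery the mice were given vehicle or WUSTL0717 daily for 7 weeks, at 30 mg/kg. WUSTL0717 is an analog of the liver X receptor (LXR) agonist GW3965 and was made to stay in the gut. Sham mice received vehicle, and no sham mice on WUSTL0717 were among the groups, so the compound was measured only after SBR. The duodenum and the ileum each had 3 sham vehicle, 4 SBR vehicle and 4 SBR WUSTL0717 libraries, and the liver had 5, 8 and 5. The ileum of SBR mice was taken beyond the anastomosis. The labels give a resection of 50 to 60% of the small bowel, and the study's methods describe a longer one. Libraries of a group are called by the number in their label, and nothing in the labels ties the same number in another tissue to the same mouse.

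Cells make cholesterol from acetyl-CoA through mevalonate, squalene and lanosterol. When sterol in the endoplasmic reticulum is low, the escort SCAP carries SREBP2 to the Golgi, where proteases free its active part, and when sterol is high the INSIG proteins hold SCAP back. In the small intestine dietary and biliary cholesterol enters enterocytes through NPC1L1, while LXR, which senses oxysterols, drives sterol export.

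Values are log2 TPM (transcript abundance scaled to gene length and library total), batch-corrected by the authors with all intestinal libraries in 1 batch and all liver libraries in the other. Levels were therefore compared only within the intestine or within the liver, and not between genes, because that correction shifts each gene on its own. In the corrected table the 5 hepatocyte markers summed to 1130 to 2960 TPM in the liver and to 321 to 8720 in the intestine, so they do not tell liver from gut here. Within the intestine the labels held, with proximal enterocyte markers at 184 to 346 TPM in the duodenum and 29.5 to 86.3 in the ileum, and distal ones at 15.4 to 31.9 and 134 to 606. The summed TPM of the table ran from 618191 to 863090 per library, and no pair of libraries held identical values. Marker sums undo the log2 of each corrected value, and only the total of the table also took 1 off per gene. A marker sum is therefore higher by 1 per gene than on the scale of that total. Folds undo the log2 of a difference in the same way, with nothing taken off, so they are ratios on the corrected scale. The sequencing depth is unknown from these files, so the precision rests on the spread between libraries. Tests were limma's moderated tests across all genes of a tissue, with Benjamini-Hochberg adjustment, and a gene is called where the adjusted p is under 0.05. In bulk tissue fewer cells of a type and less RNA per cell cannot be told apart, which holds for every result here.

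In the ileum, the sterol synthesis genes were higher after SBR than after sham surgery. The mean of the 20 synthesis genes lay between 4.41 and 4.71 log2 TPM in the 3 sham libraries and between 5.76 and 6.52 in the 4 SBR vehicle libraries, with no overlap. Of the 28 genes, 24 had a difference above 0, as did 57.7% of all 15772 genes tested. The 5 that were called were all higher, where 0.349% of all genes were called and 0.241% were called higher. The median difference of the 28 was 1.38 on the log2 scale, against 0.07 over all genes. By unadjusted p under 0.05, 21 of the 28 were higher and 0 were lower, where 5.52% and 2.94% of all genes were. The SBR vehicle libraries lay wholly above the sham libraries in 21 genes, where 6.73% of all genes did so, and wholly below them in 1, where 2.77% did.

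**Figure D1:**
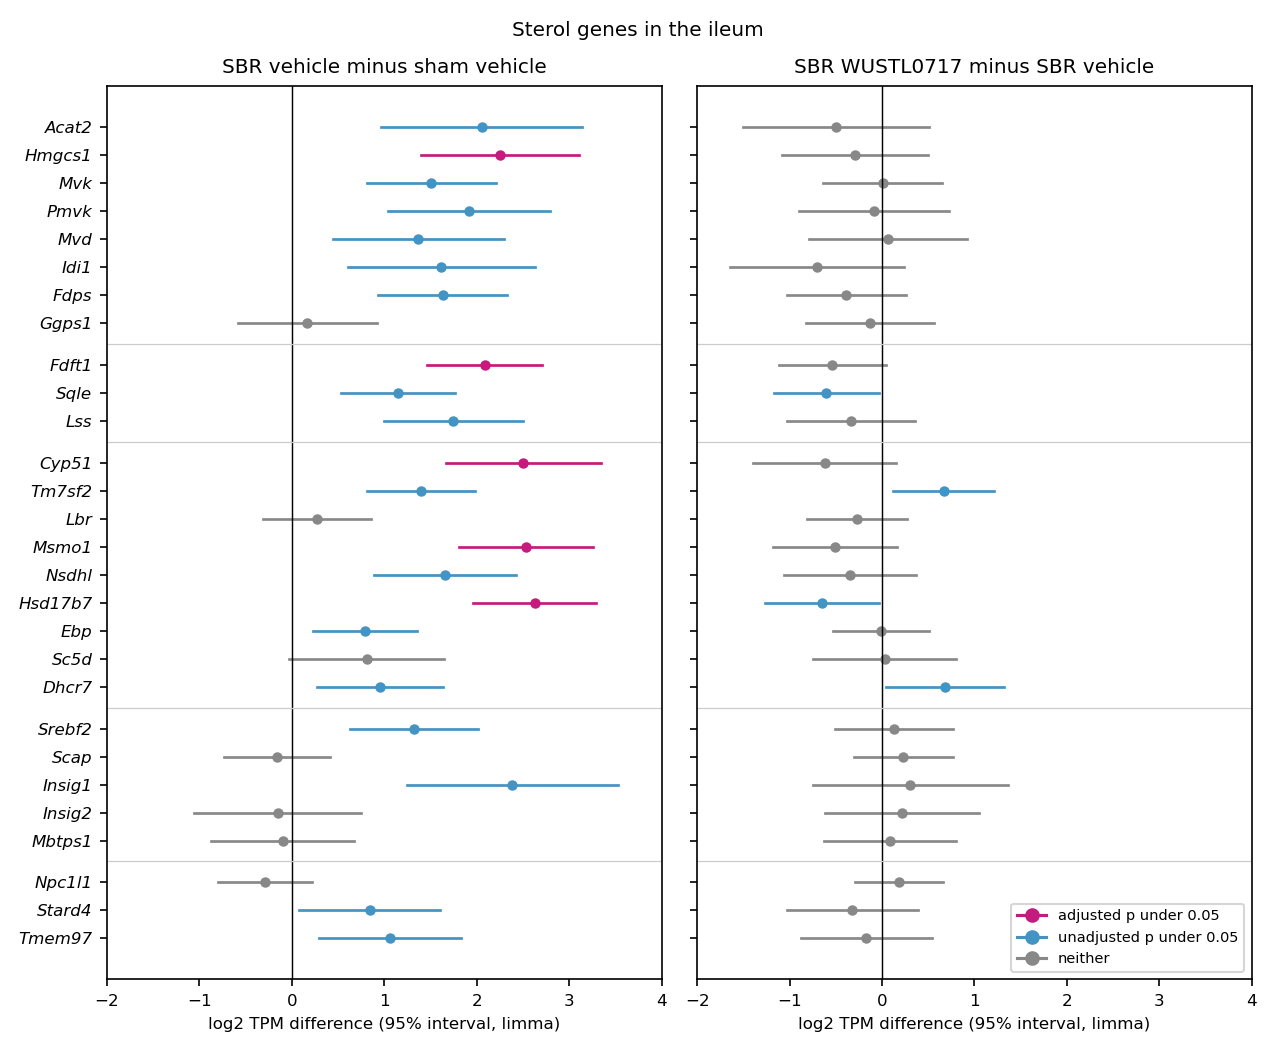
Differences in log2 TPM of the 28 genes in the ileum, as points with 95% intervals from limma, for SBR vehicle minus sham vehicle (left) and SBR WUSTL0717 minus SBR vehicle (right), with grey lines between the 5 role groups. On the left 24 points lie to the right of 0, and on the right the points spread around 0 with a median of -0.15.

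The genes follow in order of reaction. Hmgcs1, the synthase that makes hydroxymethylglutaryl-CoA, read 6.51, 6.26 and 5.72 log2 TPM in the sham libraries and 8.46, 9.20, 8.40 and 7.60 in the SBR vehicle libraries. Each SBR library was above each sham library. The difference was 2.25 ± 0.39 (SE), a 4.76-fold higher level, with a limma adjusted p of 0.0356. Acat2, the cytosolic thiolase that supplies acetoacetyl-CoA, differed by 2.05 with a limma adjusted p of 0.142. Mvk and Pmvk, the kinases that phosphorylate mevalonate, differed by 1.51 and 1.92, with limma adjusted p of 0.0882 and 0.0832. Mvd, Idi1 and Fdps, which decarboxylate, isomerise and condense the isoprene units, differed by 1.37, 1.62 and 1.63 and were not called either. Ggps1, which sends farnesyl pyrophosphate toward geranylgeranyl groups rather than sterols, differed by 0.17, with a 95% interval from -0.58 to 0.92. In all, 7 of these 8 genes had an unadjusted p under 0.05, and Ggps1 was the exception.

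All 3 genes that make squalene and carry it to lanosterol were higher by unadjusted p, and 1 was called. Fdft1, squalene synthase, read 5.31, 5.49 and 5.31 in the sham libraries and 7.27, 7.98, 7.49 and 7.07 in the SBR vehicle libraries. The sham values were close together and the groups did not overlap. Fdft1 rose 4.24-fold, by 2.09 ± 0.29 (SE), with a limma adjusted p of 0.0123. Sqle, squalene epoxidase and a rate-limiting step, read 5.93, 6.05 and 5.89 in the sham libraries and 6.97, 7.67, 7.01 and 6.78 in the SBR vehicle libraries. Its groups did not overlap, and its difference of 1.15 ± 0.28 (SE) had a limma adjusted p of 0.142. Lss, which closes the rings to form lanosterol, differed by 1.75 with a limma adjusted p of 0.0663.

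From lanosterol to cholesterol, 3 of 9 genes were called and 7 of 9 had an unadjusted p under 0.05, all higher. Hsd17b7, a ketoreductase in the removal of the methyl groups at the sterol ring, read 3.49, 3.90 and 3.92 in the sham libraries and 6.17, 7.13, 6.03 and 6.25 in the SBR vehicle libraries. It had the widest difference of the 28, 2.63 ± 0.31 (SE) or 6.18-fold, with a limma adjusted p of 0.00696. Msmo1, the methylsterol oxidase of the same steps, read 4.06, 4.35 and 3.83 against 6.41, 7.41, 6.67 and 5.97. It rose 5.80-fold, by 2.53 ± 0.33 (SE), with a limma adjusted p of 0.0116. Cyp51, the demethylase that acts on lanosterol, read 5.54, 5.43 and 4.98 against 7.91, 8.59, 7.68 and 7.11. It rose 5.67-fold, by 2.50 ± 0.38 (SE), with a limma adjusted p of 0.0159. The reductase gene Tm7sf2 differed by 1.40 (limma adjusted p 0.0598), whereas Lbr, whose product carries the same reductase activity and also anchors chromatin at the nuclear envelope, differed by 0.27 with a 95% interval from -0.32 to 0.86. Nsdhl, the dehydrogenase that acts with Msmo1 and Hsd17b7, differed by 1.65, and Ebp and Dhcr7 near the end of the pathway by 0.79 and 0.95, without a call. Sc5d, the lathosterol oxidase, differed by 0.81 and its groups overlapped.

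The genes of SREBP2 control split. Srebf2, which encodes SREBP2 and is itself an SREBP2 target, read 5.48, 5.93 and 5.81 in the sham libraries and 7.10, 7.65, 6.84 and 6.66 in the SBR vehicle libraries. Its groups did not overlap, and its difference was 1.32 ± 0.32 (SE), with a limma adjusted p of 0.131. Insig1, the retention protein that is also an SREBP2 target, read 4.12, 4.81 and 4.36 against 6.06, 7.86, 7.23 and 6.11. Its difference of 2.39 ± 0.52 (SE), or 5.23-fold, had a limma adjusted p of 0.0964. The other 3 showed no such difference. Scap, the escort, differed by -0.16 (95% interval -0.73 to 0.42), Insig2, the INSIG form that SREBP2 does not drive, by -0.15 (-1.06 to 0.75), and Mbtps1, the first of the proteases, by -0.10 (-0.87 to 0.68).

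The genes of uptake and sterol movement were not called. Npc1l1, the apical cholesterol transporter, read 4.88, 5.06 and 5.10 in the sham libraries and 4.81, 4.80, 4.46 and 4.83 in the SBR vehicle libraries. Each SBR library was below each sham library. The difference was -0.29 ± 0.23 (SE), with a limma adjusted p of 0.882. Stard4, a soluble sterol carrier, and Tmem97, a membrane protein tied to lysosomal cholesterol, differed by 0.84 and 1.06 with unadjusted p of 0.0334 and 0.0109, and neither was called.

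The distal enterocyte markers moved with these genes. The summed level of the 4 markers was 134 to 164 TPM in the sham libraries and 413 to 510 in the SBR vehicle libraries, with all 4 above their sham means and 2 called: Fabp6 by 2.05 and Slc10a2 by 2.02, the ileal bile acid binding protein and bile acid importer. All 6 general epithelial markers were also above their sham means, by a median of 0.29 and without a call, and the cycling markers had a median of -0.04. The summed levels were 1770 to 2080 TPM against 1750 to 3860 for the epithelial markers, and 5 of the 6 exocrine pancreas markers stayed below a log2 value of 1 in every ileal library. Whether the place of sampling along the ileum or the share of absorptive cells had a part in the sterol result was not tested. The count of 5 calls rested on few libraries: it was 2, 0 and 1 without sham library 1, 2 or 3. It was 3 without SBR vehicle library 1 or 3, and at most 7. In the sets without 1 library 0.019 to 0.241% of all genes were called. By unadjusted p, 20 to 22 genes were higher in each of these sets, where 3.31 to 6.71% of all genes were. Without limma's moderation of variances 0 genes were called and 20 were higher by unadjusted p, and with library weights 14 were called. The shares of all genes at these settings are not given here.

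The promoters of 5 of these genes are shown because Hmgcs1, Hsd17b7, Insig1 and Srebf2 lay wholly above sham in the ileum after SBR and Npc1l1 wholly below. Of all genes 6.73% lay wholly above and 2.77% wholly below. Insig1, Srebf2 and Npc1l1 were not called, with limma adjusted p of 0.0964, 0.131 and 0.882. Each run gives the bases before the RefSeq start (build GRCm38.p6), read 5′ to 3′ on the strand of the gene, cut where the GENCODE gene begins. Capitals mark the sterol response element TCACNCCAC, the NF-Y box CCAAT and the E box CACGTG, or their reverse complements; the 3 motifs were searched on both strands. Hmgcs1 lies at chr13:119690101-119690350 on the plus strand, Hsd17b7 at chr1:169969242-169969455 on the minus strand, Insig1 at chr5:28071162-28071362 on the plus strand, Srebf2 at chr15:82147019-82147180 on the plus strand and Npc1l1 at chr11:6230246-6230495 on the minus strand. The Hsd17b7 stretch also overlaps an exon of the gene 3110045C21Rik on the opposite strand.
Hmgcs1: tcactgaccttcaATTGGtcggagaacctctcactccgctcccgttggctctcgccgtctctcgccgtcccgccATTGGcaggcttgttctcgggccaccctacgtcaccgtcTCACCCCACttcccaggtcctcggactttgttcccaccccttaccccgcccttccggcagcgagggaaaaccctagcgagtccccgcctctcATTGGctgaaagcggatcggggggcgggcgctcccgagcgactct
Hsd17b7: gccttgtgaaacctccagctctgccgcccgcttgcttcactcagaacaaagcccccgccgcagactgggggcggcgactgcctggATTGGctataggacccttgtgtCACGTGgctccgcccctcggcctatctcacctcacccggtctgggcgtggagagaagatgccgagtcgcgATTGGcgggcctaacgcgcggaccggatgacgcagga
Insig1: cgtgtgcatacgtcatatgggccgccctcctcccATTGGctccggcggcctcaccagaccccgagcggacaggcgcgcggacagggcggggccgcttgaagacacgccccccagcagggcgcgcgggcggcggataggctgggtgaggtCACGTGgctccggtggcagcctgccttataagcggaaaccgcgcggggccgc
Srebf2: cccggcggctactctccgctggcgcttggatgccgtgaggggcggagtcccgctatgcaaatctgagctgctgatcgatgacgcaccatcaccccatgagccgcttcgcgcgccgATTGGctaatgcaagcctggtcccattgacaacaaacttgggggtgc
Npc1l1: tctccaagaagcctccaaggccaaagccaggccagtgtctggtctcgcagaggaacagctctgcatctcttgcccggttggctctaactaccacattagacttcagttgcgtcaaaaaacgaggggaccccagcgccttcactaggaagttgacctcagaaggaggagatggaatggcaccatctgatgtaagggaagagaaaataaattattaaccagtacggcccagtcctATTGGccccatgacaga

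The table of promoters held 25 of the 29 listed genes, with 31 promoters. Over the 250 bases before the start, TCACNCCAC was found in Hmgcs1 alone, from 137 to 129 bases before it, and in 1.05% of all 32851 promoters. Only this exact string was searched, and sites that differ from it were not counted. A promoter without it may still hold a sterol response element. Hmgcs1 also had 3 NF-Y boxes. An NF-Y box was found in 21 of the 31 member promoters, or 67.7%, against 33.8% of all promoters, and Npc1l1 held 1 of them. The E box was found in 5 member promoters, those of Dhcr7, Hsd17b7, Insig1, Sc5d and Scap, or 16.1% against 6.02%. These are matches of letters in a short window, and the files hold no binding data.

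In the ileum none of the 28 genes was called between SBR WUSTL0717 and SBR vehicle, where 0.0697% of all genes were, and 2 in each direction had an unadjusted p under 0.05, where 4.12% of all genes were higher and 2.75% lower. The median difference was -0.15, against 0.00 over all genes. In the WUSTL0717 libraries the 20 synthesis genes had a mean of 5.92 ± 0.27 (SD, n = 4), where the SBR vehicle mean was 6.14 ± 0.31.

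The 4 genes furthest from 0 by p lay on both sides. Tm7sf2 read 6.04, 6.07, 6.30 and 6.45 in the WUSTL0717 libraries against 5.75, 5.62, 5.38 and 5.43 with vehicle, a difference of 0.67 (95% interval 0.12 to 1.21, limma adjusted p 0.629), and its groups did not overlap, where 2.56% of all genes were wholly higher and 1.27% wholly lower. Hsd17b7 read 5.51, 5.99, 5.93 and 5.55, all below the SBR vehicle libraries, with a difference of -0.65 (-1.27 to -0.03, limma adjusted p 0.710). Sqle read 6.31, 6.90, 6.44 and 6.36, 1 of them inside the SBR vehicle range, and differed by -0.60 (-1.17 to -0.04, limma adjusted p 0.709). Dhcr7, the last reductase of a branch of the pathway, read 5.58, 6.86, 6.56 and 6.79 against 5.92, 5.87, 5.58 and 5.69 and differed by 0.68 (0.05 to 1.32, limma adjusted p 0.704). Among the controls of the pathway, Srebf2 differed by 0.13 (-0.51 to 0.77) and Insig1 by 0.31 (-0.75 to 1.36). Hmgcs1 differed by -0.29 (-1.08 to 0.49) and Npc1l1 by 0.18 (-0.29 to 0.66). The width of these intervals, with 4 libraries a group, does not show that the levels were alike.

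Against sham, the SBR WUSTL0717 ileum had 11 genes called, all higher, where 2.17% of all genes were called and 1.66% were called higher, and 20 genes whose libraries lay wholly above sham, where 9.46% did. This comparison shares its sham libraries with the one above. Tm7sf2 rose by 2.07 (4.19-fold, limma adjusted p 0.00386), Hsd17b7 by 1.98 (0.00908), Msmo1 by 2.03 (0.0115) and Fdft1 by 1.55 (0.0202). Insig1, which read 6.07, 7.60, 6.85 and 7.98 with WUSTL0717, rose by 2.69 or 6.47-fold with a limma adjusted p of 0.0243, and Srebf2, which read 6.67, 7.29, 7.59 and 7.24, rose by 1.46 (0.0381). Dhcr7, Hmgcs1, Cyp51, Mvk and Pmvk were called as well, by 1.64, 1.96, 1.89, 1.51 and 1.83. Sqle differed by 0.55 and Npc1l1 by -0.11, with limma adjusted p of 0.428 and 0.900. The count was 1, 3 and 3 without sham library 1, 2 or 3, where 0.412%, 0.432% and 1.33% of all genes were called. It was 5, 3 and 5 without WUSTL0717 library 2, 3 or 4, where 1.45%, 0.786% and 1.24% were. It was 1 without the moderation of variances, where the share of all genes called is not given here. The distal enterocyte markers were higher here too, 4 of 4 above their sham means and 2 called, with sums of 343 to 606 TPM against 134 to 164 in sham. Of the 6 epithelial markers 5 lay wholly above sham, without a call, with sums of 2460 to 3690 against 1770 to 2080, and the part of both lists in the sterol result was not tested.

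**Figure D2:**
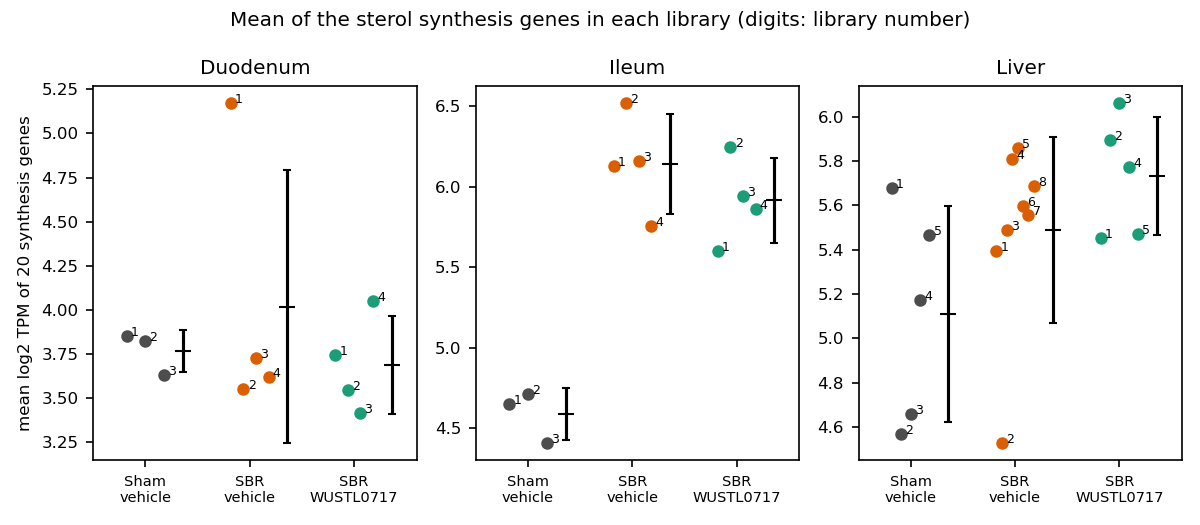
Mean log2 TPM of the 20 synthesis genes in each library, by tissue and group, with the mean and SD of each group as bars and the number of each library beside its point. The ileum separates sham (4.41 to 4.71) from both SBR groups, whereas the duodenum and the liver each hold an SBR vehicle library far from its group.

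In the duodenum none of the 28 genes was called in any of the 3 comparisons. Between SBR vehicle and sham, limma called 0 of all 15093 genes (0%), and 1 member, Mbtps1, had an unadjusted p under 0.05, where 16.1% of all genes did. The median difference of the members was 0.16, against -0.36 over all genes, so 24 of 28 lay above the median of all genes and 17 lay above 0, where 30% of all genes did. Over the sets without 1 library that member median ran from -0.20 to 0.30, and its sign turned without SBR vehicle library 1. The mean of the synthesis genes was 3.63 to 3.85 in the sham libraries, 5.17 in SBR vehicle library 1 and 3.55 to 3.73 in the other 3 SBR vehicle libraries. That library also had the lowest summed level of the 6 exocrine pancreas markers, 27 TPM, where the other 10 duodenal libraries had 94 to 1460. Its 6 epithelial markers summed to 1220 TPM, where the other 10 libraries had 410 to 616, and its cholangiocyte markers, which epithelium of the gut also expresses, summed to 215, where they had 63 to 168. The part of epithelial or pancreatic RNA in the result was not tested.

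Msmo1 and Hsd17b7 were the 2 members whose duodenal SBR vehicle libraries all lay above sham, where 3.41% of all genes did so. Msmo1 read 3.55, 3.45 and 2.79 in the sham libraries and 5.04, 3.85, 4.07 and 3.58 in the SBR vehicle libraries, and Hsd17b7 read 3.20, 3.19 and 3.06 against 4.51, 3.49, 3.40 and 4.05. The differences of Msmo1 and Hsd17b7 were 0.87 (95% interval -0.04 to 1.78) and 0.71 (-0.14 to 1.56). Mbtps1 read 3.78, 4.76 and 4.83 in the sham libraries and 4.31, 2.92, 3.46 and 2.51 in the SBR vehicle libraries, with a difference of -1.16 and a limma adjusted p of 0.301. Hmgcs1, Sqle, Srebf2 and Insig1 differed by 0.25, 0.18, -0.12 and 0.23. Lbr differed by -0.81 (limma adjusted p 0.323) and Npc1l1 by 0.00, with an interval from -0.71 to 0.71. Without SBR vehicle library 1 the differences of Hmgcs1, Sqle and Insig1 turned to -0.19, -0.18 and -0.24.

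With WUSTL0717, duodenal Sqle was lower and Insig2 higher in every library, without a call. Between SBR WUSTL0717 and SBR vehicle 0.258% of all genes were called, and 3 members had an unadjusted p under 0.05, where 5.31% of all genes did. Sqle read 3.24, 2.88, 2.65 and 3.33 with WUSTL0717, below the SBR vehicle values of 5.18, 3.63, 3.63 and 4.05 and below the sham values of 4.08, 3.78 and 3.98. The difference from SBR vehicle was -1.10 ± 0.39 (SE), with a limma adjusted p of 0.671. Insig2 read 5.19, 4.68, 5.47 and 5.35 with WUSTL0717 against 4.60, 3.25, 4.06 and 3.73 with vehicle, and differed by 1.26 ± 0.46 (SE), with a limma adjusted p of 0.690. For both the groups did not overlap. Wholly lower libraries were found in 1.05% of all genes and wholly higher ones in 2.11%. Mvk read 3.54, 2.50, 2.49 and 3.77 against 5.77, 4.48, 3.71 and 3.69, which overlap, and differed by -1.34 (limma adjusted p 0.735). Insig1 reached 10.75 in WUSTL0717 library 4 and 7.81 to 8.99 in the other 3, against 6.53 to 9.01 with vehicle, and differed by 1.29 (95% interval -0.23 to 2.80). Srebf2, Hmgcs1 and Npc1l1 differed by -0.59, -0.56 and -0.24, each with an interval that holds 0. All 6 exocrine pancreas markers were above their SBR vehicle means, by a median of 2.13 and without a call, with sums of 27 to 832 TPM with vehicle and 169 to 1460 with WUSTL0717. WUSTL0717 library 4, with the highest Insig1, also had the highest of these sums, 1460 TPM, and the part of pancreatic RNA was not tested.

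Between SBR WUSTL0717 and sham in the duodenum, where 0.802% of all genes were called, 4 members had an unadjusted p under 0.05, where 16.9% of all genes did. Insig2 differed by 1.41 (limma adjusted p 0.223) and Tm7sf2 by 0.88 (0.266), while Lbr differed by -0.90 (0.271) and Sqle by -0.92 (0.291). The WUSTL0717 libraries lay wholly above sham for Tm7sf2 and Insig1, where 5.58% of all genes did so, and wholly below it in 4 members, where 12.8% did. Srebf2, Hmgcs1 and Npc1l1 differed by -0.70, -0.32 and -0.24, against a median of -0.32 over all genes.

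The sham intestine itself differed between regions. In sham mice 1 member was called higher in the duodenum than in the ileum and 7 were called lower, where 14.6% of all genes were called, 3.83% higher and 10.8% lower, and the median of all genes was -0.52. Insig1 read 7.20, 7.68 and 7.24 in the duodenum and 4.12, 4.81 and 4.36 in the ileum, a 7.69-fold higher level with a difference of 2.94 ± 0.72 (SE) and a limma adjusted p of 0.00842. It had the opposite sign to its relative Insig2, which read 3.42, 4.88 and 3.00 in the duodenum and 5.69, 5.76 and 6.43 in the ileum, a difference of -2.20 (limma adjusted p 0.00472). Stard4 differed most, by -2.44 (0.000520). Sqle differed by -2.01 (limma adjusted p 0.000954) and Npc1l1 by -1.17 (0.00763), the latter from 3.58, 3.94 and 4.01 in the duodenum to 4.88, 5.06 and 5.10 in the ileum. Tm7sf2, Lbr and Fdps were called lower by 1.37, 1.06 and 1.00. Median centring of the libraries left 4 calls, and the share of all genes called at that setting is not given here. The count was 5 without ileal sham library 2, where 7.91% of all genes were called. An exact permutation test of 3 against 3 libraries cannot go below 0.1. Hmgcs1 and Srebf2 differed by -0.86 and -0.46 and were not called. Epithelial markers summed to 536 to 566 TPM in the sham duodenum and to 1770 to 2080 in the sham ileum. Exocrine pancreas markers summed to 94 to 1300 and to 5.4 to 5.77. The part of tissue composition in these regional differences was not tested.

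Whether the response to SBR differed between regions was tested as the ileal difference minus the duodenal one. None of the 28 was called, where 0.0754% of all genes were, and 12 had an unadjusted p under 0.05, all of them larger in the ileum, where 11.2% of all genes were. The median of the 28 was 1.23, against 0.44 over all genes, and 25 lay above 0, where 71.6% of all genes did. The largest by p were Hsd17b7 at 1.92 ± 0.49 (SE, limma adjusted p 0.148), Fdft1 at 2.15 ± 0.56 (0.170), Msmo1 at 1.66 ± 0.53 (0.250) and Cyp51 at 1.87 ± 0.61 (0.258). Hmgcs1, Insig1, Srebf2 and Sqle were at 2.00, 2.16, 1.44 and 0.97, and Npc1l1 at -0.29. This comparison turned on duodenal SBR vehicle library 1, the one with the high synthesis mean: without it 6 genes were called and 22 were higher by unadjusted p, where 1.44% and 22.7% of all genes were in the same set. For the response to WUSTL0717 0 members were called, where 0.0251% of all genes were, and Mvk alone had an unadjusted p under 0.05, with a difference of 1.34 between regions (limma adjusted p 1), where 1.25% of all genes passed in that direction.

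**Figure D3:**
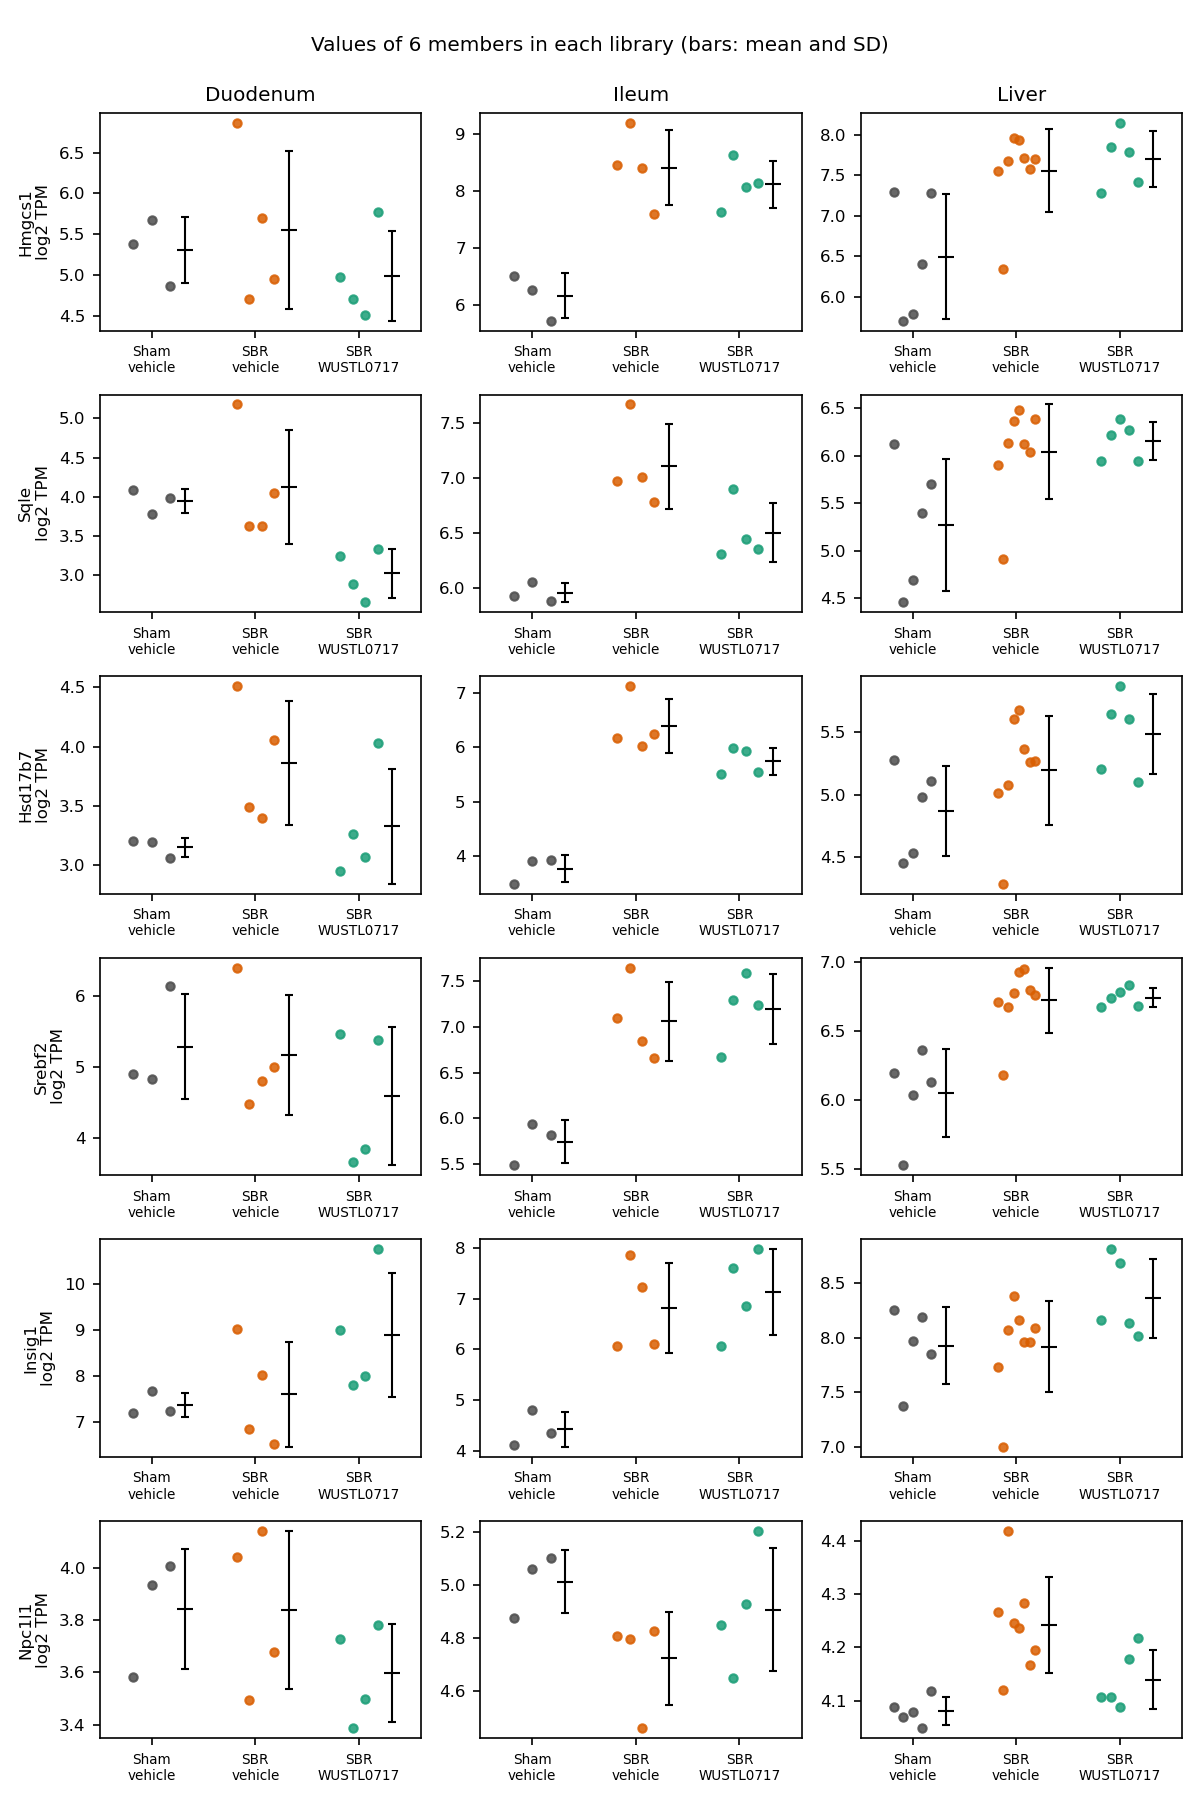
Log2 TPM of Hmgcs1, Sqle, Hsd17b7, Srebf2, Insig1 and Npc1l1 in every library, by tissue (columns) and group, with the mean and SD of each group as bars and a separate vertical scale in each panel. In the ileum the SBR libraries lie above sham for the first 5 genes, and in the liver SBR vehicle library 2 is the lowest of its group for all 6.

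In the liver, SBR and sham differed across much of the transcriptome, and the share of sterol genes called was below that of all genes. Of the 28 genes 8 were called, all higher, between SBR vehicle and sham, which is 28.6% where 41.9% of all 15901 genes were called and 37.4% were called higher. The median difference was 0.35, against 0.25 over all genes, and 20 of the 28 lay above that all-gene median. The difference was above 0 in 23 of the 28, where 79.2% of all genes were. Only Npc1l1 had no overlap between its groups, where 15.6% of all genes were wholly higher.

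Srebf2 had the lowest p of the members. It ran from 5.53 to 6.36 with a median of 6.13 in the 5 sham libraries and from 6.18 to 6.94 with a median of 6.77 in the 8 SBR vehicle libraries. The groups overlapped only through SBR vehicle library 2, which lay below sham libraries 1 and 4. Srebf2 rose 1.59-fold, by 0.67 ± 0.13 (SE), with a limma adjusted p of 0.000414. Insig2, whose liver form is known to respond to fasting and insulin, ran from 4.85 to 5.78 in sham and from 4.93 to 7.04 in SBR vehicle, and rose by 0.88 ± 0.25 (SE, limma adjusted p 0.00967). Insig1 ran from 7.37 to 8.26 in sham and from 7.00 to 8.38 in SBR vehicle, with a difference of -0.01 (95% interval -0.44 to 0.42).

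Of the enzymes, Hmgcs1 read 7.29, 5.70, 5.79, 6.41 and 7.28 in the sham libraries, which spread widely, and ran from 6.34 to 7.96 with a median of 7.69 in SBR vehicle. It rose 2.09-fold, by 1.06 ± 0.29 (SE), with a limma adjusted p of 0.00641. Sqle ran from 4.46 to 6.13 in sham and from 4.91 to 6.48 in SBR vehicle, and rose by 0.77 ± 0.26 (SE, limma adjusted p 0.0245). Mvd and Mvk rose by 0.80 and 0.56 and Lbr by 0.57, with limma adjusted p of 0.0407, 0.0309 and 0.00269. Tmem97 rose by 0.42 (limma adjusted p 0.0329). Tm7sf2 and Ebp differed by -0.34 and -0.34 with unadjusted p of 0.0379 and 0.0448, against the direction of the other enzymes. Npc1l1 read 4.05 to 4.12 in sham and 4.12 to 4.42 in SBR vehicle, a difference of 0.16 with a limma adjusted p of 0.0533. That sign turned to -0.15 and -0.12 when libraries were centred on their medians or quantile normalised. These liver values are close to flat, with an SD of 0.026 in sham, and Sis, the intestinal sucrase, is listed at 4.74 with an SD of 0 in the same 5 livers. Whether liver Npc1l1 stood above the level of a gene with no reads was not tested.

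SBR vehicle library 2 stood apart in the liver. Its synthesis mean was 4.53, while the other 7 SBR vehicle libraries had 5.39 to 5.86, and its summed hepatocyte markers were 1130 TPM against 1760 to 2420. Without it 19 of the 28 genes were called, all higher, where 56.7% of all genes were called and 52.3% were called higher in the same set. The count was 4 without sham library 3, where 39.6% of all genes were called. It was 5 without sham library 2, 4 of them higher, where 34% of all genes were called. It was also 5 without SBR vehicle library 4, 7 or 8, where 38.7%, 38% and 38.9% were. Library 7 held the exocrine pancreas markers at 2950 TPM, against 30.7 to 43.2 in the rest of its group. The sham libraries were themselves spread from 4.57 to 5.68. Over all 18 livers the synthesis genes went up and down together: after removing group means, the median correlation of the 190 pairs was 0.92, while it was 0.34 in the 11 ileal and 0.63 in the 11 duodenal libraries. On a scale where the median of every library was set equal, these medians were 0.89, 0.45 and 0.47. Tmem97 and Stard4 followed the synthesis mean in the liver with r of 0.96 and 0.88 as deposited and 0.95 and 0.80 with equal medians, and Insig2 with 0.25 and -0.17. These are descriptions over libraries that share their normalization and batch correction.

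Markers of other cells were higher in the SBR livers. The 4 cholangiocyte markers were all called higher, with a summed level of 61.7 to 158 TPM in sham and 316 to 641 in SBR vehicle. Of 5 stellate cell and myofibroblast markers 4 were called higher, with 93.5 to 150 against 293 to 499, and 5 of 5 cycling markers were called higher. The 5 hepatocyte markers were all below their sham means, 2 of them called, with sums of 2060 to 2860 against 1130 to 2420. Their part in the sterol result was not tested.

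WUSTL0717 gave no called member in the liver against SBR vehicle, where 4.1% of all genes were called. The difference was above 0 in 24 of 28 members, where 54.7% of all genes were, with a median of 0.27 against 0.02 over all genes. That member median ran from 0.12 to 0.33 over the sets without 1 library, and was lowest without SBR vehicle library 2. With libraries centred on their medians 2 members were called higher, and the share of all genes called at that setting is not given here. Tm7sf2, Ebp and Insig1 had unadjusted p of 0.0256, 0.0283 and 0.0430, where 8.5% of all genes were higher by that threshold, with differences of 0.37, 0.37 and 0.44 and limma adjusted p of 0.204, 0.213 and 0.269. For Scap the difference was 0.27 (limma adjusted p 0.296). Of the cholangiocyte markers 3 of 4 were called lower, with sums of 176 to 407 TPM against 316 to 641, and their part here was not tested. Srebf2 read 6.67, 6.74, 6.78, 6.83 and 6.68 with WUSTL0717, inside the SBR vehicle range, and differed by 0.02 (95% interval -0.25 to 0.29). Hmgcs1 and Sqle differed by 0.14 (-0.46 to 0.75) and 0.11 (-0.44 to 0.66), and Npc1l1 by -0.10 (-0.24 to 0.03). Without SBR vehicle library 2 the differences of Hmgcs1, Sqle and Srebf2 were -0.03, -0.05 and -0.06.

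Against the same sham livers, SBR WUSTL0717 had 12 genes called, all higher, where 28.8% of all genes were called and 27.9% were called higher. All 28 differences were above 0, where 88.5% of all genes were, with a median of 0.62 against 0.27 over all genes, and 22 lay above that all-gene median. Hmgcs1 read 7.28, 7.85, 8.14, 7.79 and 7.42 and rose by 1.21 (2.31-fold, limma adjusted p 0.0109). Srebf2 rose by 0.69 (limma adjusted p 0.00246), with no overlap between its groups, where 27.4% of all genes were wholly higher. Mvd, Sqle, Insig2, Cyp51, Fdft1, Acat2, Mvk, Hsd17b7, Tmem97 and Lbr were called too, with differences from 0.56 to 1.09. Insig1 differed by 0.43 (limma adjusted p 0.145) and Npc1l1 by 0.06 (0.526). The count fell to 3 when libraries were centred on their medians, when they were quantile normalised, and without sham library 2. Without sham library 2, 16.9% of all genes were called. For centring and quantile normalization that share is not given here. The count was 5 without sham library 3, where 25.9% of all genes were called. It was 7, 6 and 4 without WUSTL0717 library 2, 3 or 4, where 26.3%, 29.9% and 15.4% were. Markers of other cells were higher than sham in these livers too. All 4 cholangiocyte markers were called higher, with sums of 176 to 407 TPM against 61.7 to 158 in sham. So were 4 of 5 stellate cell and myofibroblast markers, with 171 to 319 against 93.5 to 150, and 4 of 5 cycling markers, with 20.4 to 62 against 16 to 17.2, and their part in the sterol result was not tested.

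**Figure D4:**
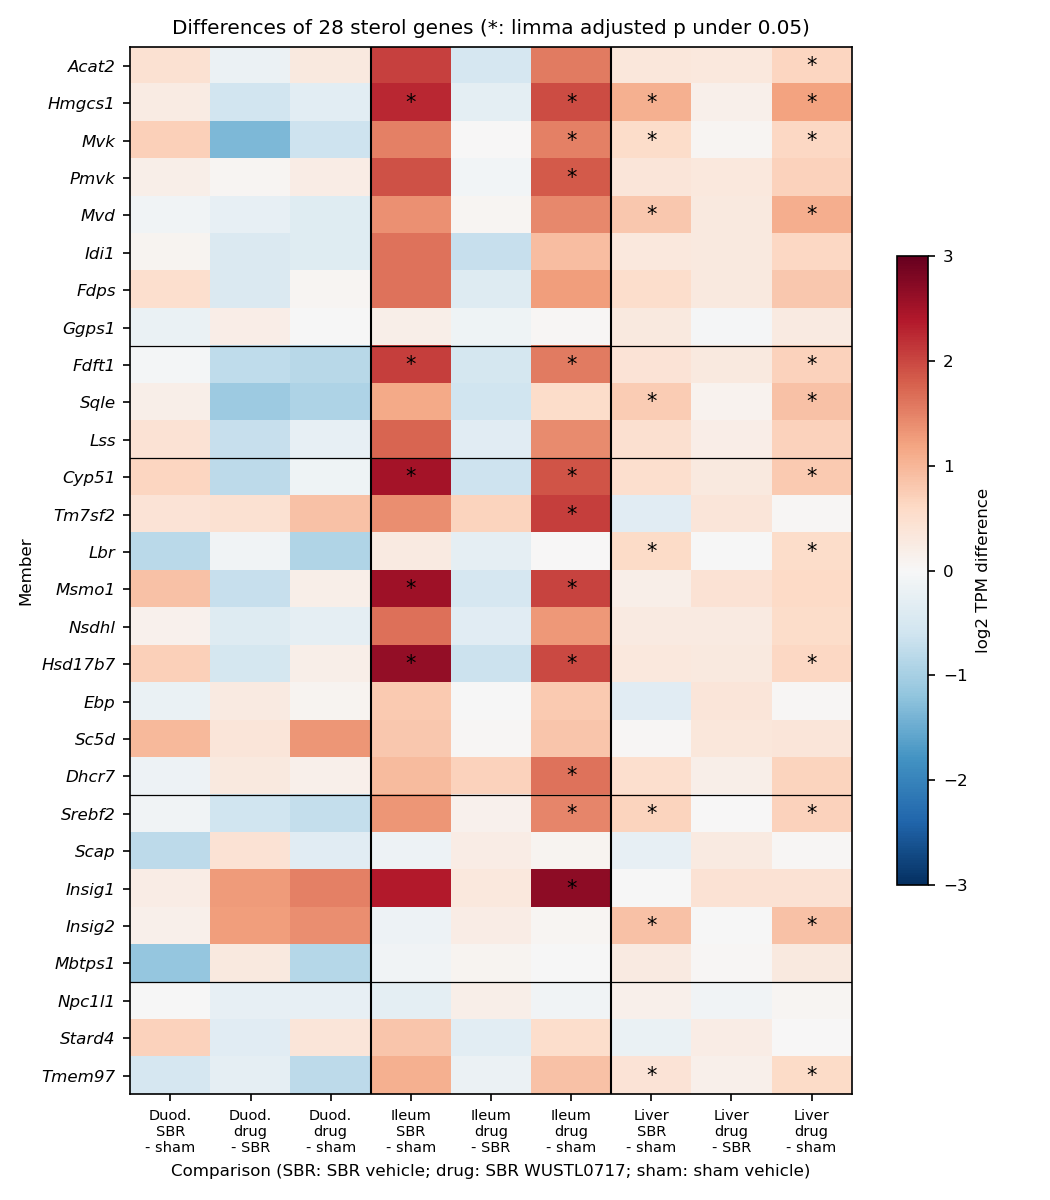
Differences in log2 TPM of the 28 genes (rows, in order of role) in the 9 comparisons within a tissue (columns), in red where the first group was higher and in blue where it was lower, with a star where the limma adjusted p was under 0.05. The stars stand in the ileal and hepatic columns against sham, in 5, 11, 8 and 12 genes, and no star stands in the duodenum or between the SBR groups.

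Neighbouring genes of sterol handling, 36 in 3 lists, were not called in the ileum. Between SBR vehicle and sham 0 of 10 genes of sterol-regulated degradation, 0 of 12 genes of the isoprenoid branches and 0 of 14 genes of esterification, lysosomal release and sterol transfer were called, with medians of 0.13, 0.07 and 0.14. Soat2, the enterocyte enzyme that esterifies cholesterol, had the widest difference, -1.82 with a limma adjusted p of 0.173, opposite in sign to the synthesis genes. Between SBR WUSTL0717 and SBR vehicle, Mylip, an LXR target whose product marks lipoprotein receptors for degradation, differed by 2.30 in the ileum (limma adjusted p 0.345), 1.71 in the duodenum (0.0864) and 0.05 in the liver (0.933). In the liver, 4 of 10, 2 of 12 and 8 of 14 genes of the 3 lists were called higher between SBR vehicle and sham, which is 40%, 16.7% and 57.1% where 37.4% of all genes were, and 0 were called lower. Gramd1b, which moves sterol from the plasma membrane, rose by 1.07 there (limma adjusted p 3.83e-06), Fntb, a farnesyltransferase subunit, by 0.66 (0.000251) and Rnf145, a ligase of sterol-regulated degradation, by 0.51 (0.000953).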

How the data were processed

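RNA from mouse duodenum, ileum and liver was sequenced after ribosomal RNA removal with random primers. Per the labels and the study's methods, the authors aligned reads to GRCm38 with STAR, counted them with featureCounts, converted counts to TPM and log2, and applied ComBat with the intestine as 1 batch and the liver as the other. The deposited table holds these log2 TPM values for 15958 genes and 40 libraries, of which 2752 are below 0. The correction can rescale each gene as well as shift it, and it treats the tissue difference as batch. Depth is unknown, since TPM keeps none.

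Here genes with a mean log2 of at least 1 in the fitted libraries were tested with limma (version 3.58.1, R 4.3.3), with an intensity trend, in 1 fit of the 3 groups of a tissue, or of all 22 intestinal libraries between regions (15923 genes). Calls used an adjusted p under 0.05. Groups came from the labels. P-values measure the spread between labelled libraries. The scripts were run on simulated data in which 200 genes were shifted by 2 on the log2 scale. The noise was independent for each gene, unlike the sterol genes here, and the recovery is not given here. Intervals are 95%. Named genes were those called, or the 4 with the lowest p where fewer than 4 were called, plus Srebf2, Insig1, Hmgcs1, Sqle and Npc1l1, with at most 3 from each other list, and others are named to account for all members. The members, lists and rules were chosen with earlier results of these data known. Alternatives were other filters (none, or a mean of 3), a pseudocount of 5, median centring, quantile normalization, an unmoderated two-sample test, library weights, only the compared groups, a replicate block and leaving out each library. Promoters came from RefSeq on GRCm38.p6. Figures were drawn with matplotlib 3.10.9.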

Additional observations from a re-analysis of the deposited data

Results flagged for a closer look

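In the liver, SBR vehicle library 2 was the lowest of its 8 libraries, by a gap beyond Dixon's limit, for 10 members. It read 6.179 for Srebf2, 6.345 for Hmgcs1, 4.91 for Sqle, 4.684 for Mvk, 6.069 for Tmem97, 4.99 for Mvd, 7.00 for Insig1, 5.925 for Ebp, 5.581 for Cyp51 and 5.379 for Fdft1, in log2 TPM. In the ileum Cyp51 stood apart at 6.46 in WUSTL0717 library 4, where the other 3 libraries read 7.355 to 7.525. Npc1l1 was the lowest at 4.459 in ileal SBR vehicle library 3, where the others read 4.798 to 4.828. Lbr was the highest at 3.109 in duodenal WUSTL0717 library 1, where the others read 2.425 to 2.54. Of the 101 groups of values examined 13 stood out, where chance gives about 1 in 20 for independent groups. The 10 in liver SBR vehicle library 2 come from 1 library, in genes that vary together. The 13 are therefore not independent, and the count cannot be set against that rate.

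Npc1l1 was wholly lower after SBR in the ileum, with a difference of -0.29, where 2.77% of all genes were wholly lower. Its ileal limma adjusted p was 0.882. In the liver it was wholly higher, with 0.161, where 15.6% of all genes were. The difference between the tissues was not tested, since they were corrected as separate batches, and the liver sign turned under median centring and quantile normalization. The sham livers read 4.08 with an SD of 0.026, and Sis is listed at 4.74 with an SD of 0 in the same libraries. Whether the liver values of Npc1l1 stand above the level of a gene with no reads was not tested.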

How the results depend on the processing

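The 28 of the list are described by TPM with no known depth, so low values cannot be weighed by their reads, and the p-values rest on 3 to 8 libraries a group. Leaving out 1 library at a time gave 0 to 7 calls in the ileum for SBR vehicle against sham and 1 to 11 for SBR WUSTL0717 against sham. In the liver the same comparisons gave 4 to 19 and 3 to 15. The count was 5 to 7 between regions in sham, and 0 to 6 for the difference of the SBR response. Of all genes, 0.019 to 0.241% and 0.412 to 1.53% were called in these ileal sets. That share was 34 to 56.7% and 15.4 to 30.7% in the liver. It was 7.91 to 11.5% between regions and 0.00629 to 1.44% for the difference of the SBR response. With a higher filter on low values (a mean of 3) the ileal SBR count was 9. Library weights gave 14 in the ileum, 1 in the duodenum, 14 in the liver and 13 for the regional difference of the SBR response. For all settings other than leaving out 1 library, here and above, the share of all genes called is not given. Whether the counts moved beyond that share was not tested. Fits of only the compared groups gave 1 for ileal SBR, 6 for ileal WUSTL0717 against sham and 4 between sham regions. Unmoderated tests gave 0, 1 and 5 for ileal SBR, ileal WUSTL0717 against sham and liver SBR. Centring gave 2 for liver WUSTL0717 against SBR vehicle, 3 for liver WUSTL0717 against sham and 4 between sham regions, and quantile normalization gave 6 for ileal WUSTL0717 against sham, 3 for the same in the liver, 4 between sham regions and 1 for the regional difference.

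Some small differences changed sign, and the cause was not tested. Under library weights Hmgcs1 was -0.362 for duodenal SBR, -0.151 for liver WUSTL0717 against SBR vehicle and -0.135 for the regional difference of the WUSTL0717 response, Insig1 was -0.464 for duodenal SBR, and Sqle and Srebf2 were -0.117 and -0.098 for liver WUSTL0717 against SBR vehicle. Under centring Hmgcs1 was 0.0445 for duodenal WUSTL0717 against sham, Srebf2 0.287 for duodenal SBR, and Npc1l1 was 0.118 and 0.4 in those 2 and -0.242 and -0.146 in the same 2 of the liver. Under quantile normalization Npc1l1 was 0.0159, 0.322, -0.243 and -0.124 in these 4, Srebf2 was 0.0472 for duodenal SBR, and -0.0646 and -0.0746 for WUSTL0717 against SBR vehicle in ileum and liver. A pseudocount of 5 made Npc1l1 0.000456 for duodenal SBR. Without 1 library, duodenal SBR ran from -0.133 to 0.112 for Npc1l1, -0.526 to 0.312 for Srebf2, -0.242 to 0.586 for Insig1, -0.189 to 0.53 for Hmgcs1 and -0.176 to 0.34 for Sqle. Liver WUSTL0717 against SBR vehicle ran from -0.0581 to 0.0512 for Srebf2, -0.0302 to 0.246 for Hmgcs1 and -0.0516 to 0.173 for Sqle. Insig1 ran from -0.149 to 0.122 for liver SBR, Srebf2 from -0.00159 to 0.329 for ileal WUSTL0717 against SBR vehicle, and Hmgcs1 from -0.168 to 0.552 for the regional difference of the WUSTL0717 response. Of the other single-gene values under other settings, 843 kept their direction and side of the threshold, 112 lost the call and 14 gained it. The 843 include genes that were not called in the main fits and stayed so. Without 1 library, 896 values kept both, 141 lost the call and 6 gained it.

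After removing group means, same-numbered libraries of different groups correlated from -0.32 to 0.468. In no pair of groups was every value above 0.1, and sham ileum and duodenum ran from 0.072 to 0.468. Such values cannot show whether libraries of different tissues shared a mouse. The main tests treated all libraries as independent. With the number as a block 3 genes were called for ileal SBR, 5 for ileal WUSTL0717 against sham and 4 for liver SBR. Within a tissue this block joins same-numbered libraries of different groups, which come from different mice. These counts therefore cannot show an effect of shared mice, and the share of all genes called at this setting is not given here.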
